A study of Mus musculus with 24 samples.

Results

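Spinal cords of wild-type mice with passive experimental autoimmune encephalomyelitis (EAE) were compared between recipients of Th17 cells and recipients of Th1 cells. The comparison held 10 of the 24 arrays of the series, 5 cords from Th17 recipients and 5 from Th1 recipients, chosen by their sample titles, with 1 array per mouse. It covered 17097 genes, each read by 1 probe set, the brightest on average of those that name this gene alone. Recipients of both kinds were female wild-type mice, age-matched per the methods, that received 500 rad of sublethal irradiation and, 4 hours later, 30000000 cells reactive to the myelin peptide MOG35-55. The donor cells came from lymph nodes and spleens of immunized mice and had been cultured with the peptide (25 µg/ml) for 5 days, so they were not a pure T cell population, and the sublethal dose left recipients with blood cells of their own. Th1 cultures contained IL-12 (20 ng/ml) and an antibody to IL-23p19 (2 µg/ml), and Th17 cultures contained IL-23 (20 ng/ml). Naive wild-type mice (n = 5), which were left untreated, are given below only as a reference level (mean ± SD), with no test. Values of single mice are deposited log2 values in the order of the replicate numbers. Because both compared groups were irradiated and injected, the comparison concerns the kind of cell preparation transferred, with its culture additives, and not the transfer itself. The sources differ on the time of collection, which the labels place at the onset of symptoms and the study at the peak of disease. The study's methods give a fixed day after transfer. A difference in disease stage between the groups therefore cannot be told apart from the kind of cells. The cords were whole tissue, so fewer cells of a type and less RNA per cell cannot be told apart.

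Th1 and Th17 cells are helper T cells that both cause EAE when they react to myelin. Th1 cells are known for interferon-γ, which raises MHC class II and other antigen presentation genes in macrophages and microglia. Th17 cells are known for IL-17, which acts on tissue cells such as astrocytes and fibroblasts through the adaptor Act1, NF-κB and C/EBP factors and raises chemokines that draw neutrophils. The question of the comparison was which genes of the inflamed cord differ with the kind of T cell that started the disease.

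Of the 17097 genes, 513 (3.00%) differed at an adjusted p under 0.05, with 327 (1.91%) higher in Th17 recipients and 186 (1.09%) higher in Th1 recipients. These counts come from limma on the deposited log2 values, with all 24 arrays in a two-sided test and a Benjamini-Hochberg adjustment across the whole table. Differences are given as Th17 minus Th1 throughout. With the 10 compared arrays alone 282 genes were called, and by the methods' t-test with the same adjustment 69. The standard errors and p-values of limma rest on 1 variance per gene over all 5 groups of the fit, not on the compared mice alone. For a gene that spread more in the compared mice than in the other groups, both can be too small. Among the called genes, 104 had a Th1 SD over 2 times the Th17 SD, and 70 the reverse. Most differences were small. The median size was 0.63 on the log2 scale (1.54-fold) for genes higher in Th17 recipients, of which 63 reached 2-fold and 15 reached 4-fold. For genes higher in Th1 recipients it was 0.53 (1.44-fold), with 25 at 2-fold and 7 at 4-fold or more. The 5 and 5 arrays did not overlap for 563 genes (3.29% of all), among them 217 of the 327 and 118 of the 186. Compared with naive cords, 260 of the 327 genes stood in the order naive, Th1, Th17, whereas among the 186 genes naive cords were the lowest for 85, between the groups for 22 and the highest for 79. A share of the calls concerned genes at the low end of the scale. In 32 of the 327 and 19 of the 186, the lower group alone had a mean below 3.46, the lowest median of any array, and its difference is then a lower bound in size, written as "at least".

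The arrays of the Th1 group and the plate layout touch these counts. Th1 recipients 4 and 5 stood apart from the other Th1 recipients on the first principal component of all 24 arrays, at 55.0 and 55.9 against 67.8 to 68.5, with the Th17 recipients at 65.4 to 74.6. Without both of them 320 genes were called, and 179 of the 327 and 80 of the 186 were still called, while all 513 kept their sign. Among the genes named below, Il1r1, Batf, Irf4, Trem3, Hpgd, Ebi3, Arg1, Atp1b2, Gpr183, Apln, Timp3, Hspb1, Cd74, Cxcl9, Cfb, Msr1, Apoc1, Apoe, Mx1, Rsad2, Fas, Cd14, Fcgr1, S100a16, Ms4a6d and Gm2a were not called without them. A code in the sample titles was read as the well of a plate, and rows B, D and E each held 1 array of both groups, which gives 3 comparisons within a row. The sign was the same in all 3 rows for 307 of the 327 genes and 166 of the 186. With the row as a block 403 genes were called. When arrays were centred on ribosomal protein genes, 390 were higher in Th17 recipients and 105 in Th1 recipients, so that the share of calls higher in Th17 recipients went from 63.7% to 78.8%. Of the called genes named by the fixed rule 59 had another probe set, and 27 of these were also called by the brightest one. Another probe set gave under 0.3 times the difference for Selp (0.53), Tnc (0.17), Col5a2 (0.33), Slfn3 (0.10) and Gpr183 (0.13). At least 1 of several did so for Cxcl12, Cd247, Ccr2, Cd36, Timp3, Cyp51, Nfkbiz, Ms4a6d and Gm2a. Tissue markers were in place in both groups, with mean levels of 7.53 to 7.70 in Th17 and 7.57 to 7.73 in Th1 recipients over 20 neuronal genes and of 9.43 to 9.65 and 9.22 to 9.48 over 16 myelin genes. The plot of all genes by level shows calls in both directions at low and at high levels.

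**Figure D1:**
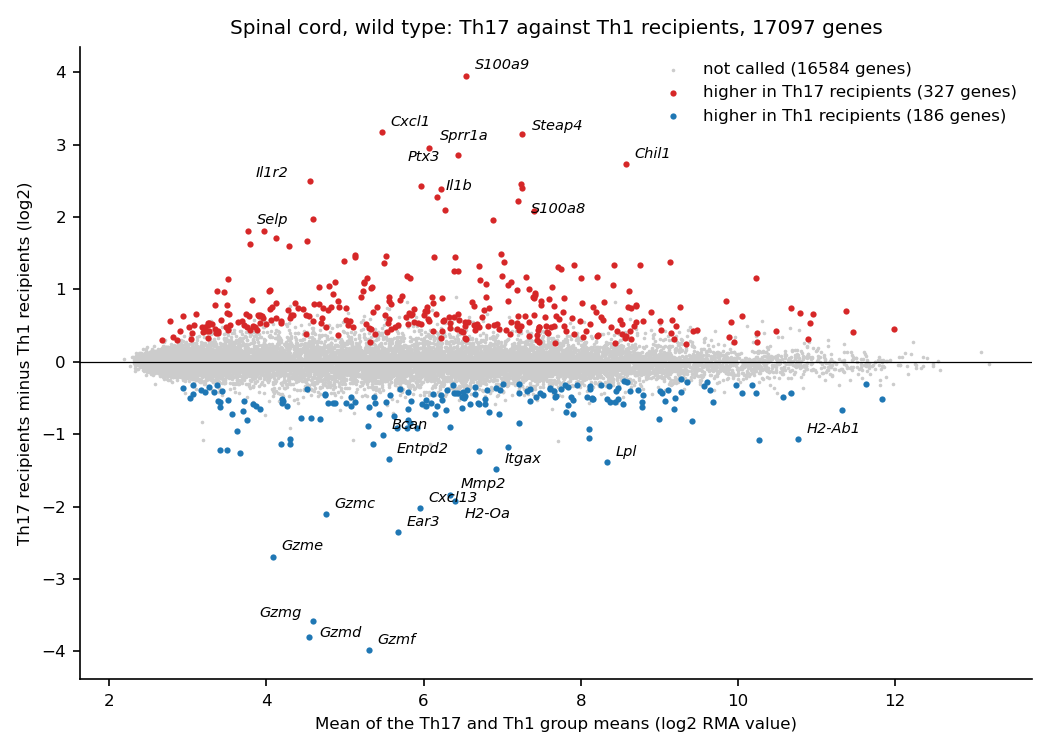
Difference between Th17 and Th1 recipients (log2, y axis) against the mean of the group means (log2 RMA value, x axis) for 17097 genes. Red points are the 327 genes called higher in Th17 recipients, blue points the 186 called higher in Th1 recipients and grey points the genes not called; S100a9 lies at the top (3.95) and Gzmf at the bottom (−3.99).

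The cytokine genes that define the transferred cells did not pass the test. Ifng, the signature cytokine of Th1 cells, read 3.83, 4.22, 3.35, 4.02 and 4.19 in Th17 and 4.38, 3.83, 3.93, 4.11 and 4.31 in Th1 recipients. The groups overlapped and the difference did not pass (log2 difference −0.19 ± 0.13 SE, adjusted p = 0.666). Il17a, the signature cytokine of Th17 cells, read 3.38, 3.65, 4.05, 3.09 and 3.37 in Th17 and 3.21, 3.08, 3.08, 3.00 and 3.15 in Th1 recipients, a difference that missed the threshold (log2 difference 0.40 ± 0.12 SE, adjusted p = 0.0573). Tbx21, which encodes the Th1 factor T-bet (log2 difference 0.11 ± 0.10 SE, adjusted p = 0.809), and Csf2, the cytokine GM-CSF (log2 difference −0.17 ± 0.13 SE, adjusted p = 0.757), did not pass either. Il17f and Il22 were not analysed here. Of 11 measured genes of a Th17 cell list, 4 were higher in Th17 recipients and 0 in Th1 recipients, with a list median of 0.40 against −0.0012 for all genes. They were the IL-1 receptor Il1r1 (log2 difference 0.86 ± 0.17 SE, 1.81-fold, adjusted p = 0.00289) and the chemokine receptor Ccr6 (log2 difference 0.64 ± 0.12 SE, adjusted p = 0.00272, both groups below 3.46). The others were the transcription factors Batf (log2 difference 0.63 ± 0.12 SE, 1.55-fold, adjusted p = 0.00237) and Irf4 (log2 difference 0.40 ± 0.10 SE, at least 1.32-fold, adjusted p = 0.0217). Another probe set of Irf4 gave 0.00. The Irf4 call was lost without Th1 recipient 4 or Th17 recipient 1 or 5, and of these calls only that of Ccr6 was kept without Th1 recipients 4 and 5 together.

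Of 13 measured genes of a Th1 cell list, 1 was called, and it was higher in Th17 recipients. It was Il18rap, a subunit of the IL-18 receptor, which read 5.25, 5.64, 5.22, 5.61 and 4.92 in Th17 and 4.50, 3.97, 4.33, 4.18 and 4.41 in Th1 recipients without overlap (log2 difference 1.05 ± 0.12 SE, 2.07-fold, adjusted p = 2.40e-06). T cell markers were called higher in Th17 recipients for 5 of 14 genes and lower for 0. Icos, a costimulator of activated T cells, read 5.33, 5.77, 5.41, 4.91 and 5.72 in Th17 and 4.73, 3.94, 4.2, 4.61 and 4.13 in Th1 recipients, again without overlap (log2 difference 1.11 ± 0.15 SE, 2.15-fold, adjusted p = 2.48e-05). Cd4 (0.66, with another probe set at 0.03) and the T cell receptor chain gene Cd247 (0.49) were also higher. The mean log2 level of the 14 markers ran from 5.19 to 5.54 in Th17 recipients and from 4.85 to 5.27 in Th1 recipients, and without Th1 recipients 4 and 5 the calls were 4 higher and 2 lower. The 2 lower calls also appeared without Th1 recipient 4 alone. In the Th1 cell list, 2 genes were higher and 2 lower without Th17 recipient 5, and 2 were higher without Th1 recipient 2.

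The promoters of the neutrophil chemokines Cxcl1 and Cxcl2, which are among the IL-17 target genes described next and lie near each other on chromosome 5, are shown because both hold the same NF-κB letters. NF-κB is the main factor downstream of IL-17 and IL-1. The stretches are given 5′ to 3′ from RefSeq promoters (GRCm38.p6, plus strand), Cxcl1 at chr5:90891134-90891213 and Cxcl2 at chr5:90903762-90903841, with the match to the NF-κB consensus in capitals.
Cxcl1: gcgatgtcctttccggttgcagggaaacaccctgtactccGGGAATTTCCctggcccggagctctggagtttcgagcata
Cxcl2: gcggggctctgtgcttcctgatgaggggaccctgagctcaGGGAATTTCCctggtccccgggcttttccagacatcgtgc
In Cxcl1 the match begins 71 bases and in Cxcl2 97 bases before the annotated start. Over promoters of 300 bases (250 before and 50 after the start, both strands), the consensus was found in 673 of 13605 tested genes with a promoter (4.95%). It was found in 28 of the 240 with a promoter among genes higher in Th17 recipients (11.7%) and in 6 of 146 among those higher in Th1 recipients (4.11%). Among 17 IL-17 target genes with a promoter it was found in 7 (41.2%), including 4 of the 10 that were called, Cxcl1, Cxcl2, Il6 and Steap4. All motifs here were searched on both strands, and a match of letters is not a bound site.

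Genes that IL-17 is known to raise were higher in Th17 recipients for 14 of 24 measured members and lower for 0. The list median was 0.73, and the same counts were obtained without Th1 recipients 4 and 5. The list was chosen with earlier results of these data known. It holds Cxcl1, Steap4, S100a9 and Ccl7, which the study named as Th17-specific from these same arrays, so its counts are not independent of these data. Cxcl1, a chemokine for neutrophils, read 7.04, 7.19, 7.25, 6.98 and 6.88 in Th17 and 4.51, 3.44, 3.30, 4.03 and 4.17 in Th1 recipients. The lowest Th17 recipient lay more than 2 log2 units above the highest Th1 recipient, the Th17 recipients varied less among themselves than the Th1 recipients, and the differences within rows B, D and E were 3.74, 3.09 and 2.68. Cxcl2, its close relative, read 3.70, 4.54, 3.95, 3.54 and 4.69 in Th17 and 3.06, 2.61, 2.89, 2.89 and 3.21 in Th1 recipients, where all Th1 recipients were near the naive level of 2.67 ± 0.14 (log2 difference 1.15 ± 0.16 SE, at least 2.22-fold, adjusted p = 3.45e-05). Cxcr2, the receptor for both on neutrophils, was also higher (log2 difference 0.67 ± 0.13 SE, adjusted p = 0.00294, both groups below 3.46). Steap4, a metalloreductase, read 9.31, 8.39, 9.31, 8.79 and 8.30 in Th17 and 6.51, 5.31, 4.47, 6.59 and 5.50 in Th1 recipients, with a naive level of 2.76 ± 0.16. Th1 recipients 1 and 4 were the highest of their group, and the groups did not overlap.

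Regulators downstream of IL-17 were part of this set, and only some were called. Nfkbiz and Cebpd were called, whereas Zc3h12a, Tnfaip3, Cebpb and Elf3 were measured and not called. Nfkbiz, Cebpd, Lcn2, Saa3 and Mmp3 were chosen after their values were seen. Nfkbiz, which encodes the NF-κB cofactor IκBζ, read 6.49, 6.51, 6.52, 5.22 and 6.18 in Th17 and 5.04, 5.11, 4.47, 4.72 and 4.73 in Th1 recipients. All Th17 recipients were above all Th1 recipients, although Th17 recipient 4 stood well below the others of its group (log2 difference 1.37 ± 0.18 SE, 2.58-fold, adjusted p = 2.26e-05). Cebpd, a C/EBP factor, read 9.08, 8.71, 9.27, 8.86 and 8.99 in Th17 and 8.36, 8.31, 8.41, 7.99 and 8.01 in Th1 recipients, with narrow groups that did not overlap (log2 difference 0.76 ± 0.12 SE, 1.69-fold, adjusted p = 3.46e-04). Lcn2, an iron-binding protein of neutrophils and reactive astrocytes, was near the top of the scale in both groups at 11.73 ± 0.10 in Th17 and 11.03 ± 0.43 in Th1 recipients (SD, n = 5 each), a difference of 1.62-fold (adjusted p = 0.00508). Saa3, an acute-phase protein, was higher (log2 difference 0.84 ± 0.23 SE, 1.79-fold, adjusted p = 0.0380) with overlapping groups and a call that was lost without Th1 recipient 1, 2, 3 or 5 or Th17 recipient 1, 2, 3 or 4. Mmp3, the matrix protease stromelysin, was near background in both groups (log2 difference 0.51 ± 0.12 SE, adjusted p = 0.0131). Among receptor and adaptor genes of IL-17 only 1 of 11 was called, Il17re, a receptor subunit of epithelial cells (log2 difference 0.44 ± 0.10 SE, at least 1.36-fold, adjusted p = 0.0133), and that call was lost without Th17 recipient 3.

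Neutrophil genes were higher in Th17 recipients for 8 of 20 measured markers and lower for 0, and 8 were higher without Th1 recipients 4 and 5. S100a9, a subunit of calprotectin and one of the most abundant neutrophil proteins, read 8.02, 8.54, 8.82, 7.85 and 9.38 in Th17 and 6.49, 5.02, 3.57, 3.96 and 3.80 in Th1 recipients. Its partner S100a8 read 7.86, 8.42, 8.46, 7.94 and 8.89 in Th17 and 7.01, 6.33, 5.98, 5.79 and 5.34 in Th1 recipients, and both genes were the lowest in Th1 recipients 3 to 5. Neither pair of groups overlapped (log2 difference 3.95 ± 0.37 SE, 15.5-fold, adjusted p = 7.11e-08 for S100a9 and log2 difference 2.23 ± 0.24 SE, 4.68-fold, adjusted p = 6.27e-07 for S100a8). Mmp8, the neutrophil collagenase, read 6.33, 7.51, 7.34, 7.55 and 7.19 in Th17 and 5.67, 5.62, 5.87, 3.41 and 3.18 in Th1 recipients, with Th1 recipients 4 and 5 near the naive level of 2.72 ± 0.20. Without these 2 arrays the difference of Mmp8 was 1.46 instead of 2.43 (adjusted p = 1.38e-05). Il1r2, a decoy receptor for IL-1 that neutrophils carry, read 5.10, 6.05, 5.55, 5.97 and 6.38 in Th17 and 3.64, 3.27, 3.16, 3.23 and 3.25 in Th1 recipients, and only Th1 recipient 1 exceeded the array median (log2 difference 2.50 ± 0.17 SE, at least 5.66-fold, adjusted p = 3.66e-10). Trem3, an activating receptor of granulocytes and macrophages, was near background (log2 difference 0.48 ± 0.11 SE, adjusted p = 0.00796). The mean level of the 20 markers ran from 4.56 to 4.98 in Th17 recipients and from 3.76 to 4.27 in Th1 recipients.

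The genes with the largest increases also included some with other roles. Sprr1a, a cornified envelope protein that injured neurons also make, read 8.01, 7.63, 8.06, 7.67 and 6.39 in Th17 and 4.85, 4.46, 4.18, 5.13 and 4.35 in Th1 recipients, with Th17 recipient 5 lowest in its group but above every Th1 recipient (log2 difference 2.96 ± 0.22 SE, 7.76-fold, adjusted p = 1.87e-09). Chil1, the chitinase-like protein of reactive astrocytes and macrophages, read 10.04, 10.02, 10.36, 9.70 and 9.60 in Th17 and 7.55, 7.27, 6.73, 7.43 and 7.06 in Th1 recipients and did not overlap (log2 difference 2.73 ± 0.14 SE, 6.65-fold, adjusted p = 1.22e-12). Its naive level was 5.35 ± 0.13. Tgm1, a transglutaminase, read 8.55, 8.44, 8.62, 8.34 and 8.27 in Th17 and 6.97, 6.42, 5.63, 6.78 and 5.98 in Th1 recipients (log2 difference 2.09 ± 0.16 SE, 4.25-fold, adjusted p = 2.57e-09). Angptl4, an inhibitor of lipoprotein lipase, read 8.49, 8.39, 8.92, 8.31 and 8.18 in Th17 and 6.95, 6.21, 6.36, 5.29 and 5.45 in Th1 recipients (log2 difference 2.40 ± 0.25 SE, 5.30-fold, adjusted p = 5.81e-07), and the 2 lowest values were those of Th1 recipients 4 and 5. Another probe set of Angptl4 gave 0.01. Lrg1, a secreted glycoprotein of neutrophils and vessels, read 6.94, 7.30, 7.21, 7.54 and 8.10 in Th17 and 6.46, 5.35, 5.02, 4.02 and 4.30 in Th1 recipients, and again Th1 recipients 4 and 5 were the lowest (log2 difference 2.39 ± 0.28 SE, 5.23-fold, adjusted p = 3.28e-06). Without them the differences were 1.95 for Angptl4 and 1.81 for Lrg1. Spidr, a scaffold protein of DNA repair, was also among the 15 largest (log2 difference 2.10 ± 0.22 SE, 4.28-fold, adjusted p = 6.27e-07).

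Slfn4, a schlafen gene of myeloid cells, split the Th1 group in the same way. It read 8.37, 8.64, 8.35, 8.33 and 8.65 in Th17 and 7.73, 6.72, 6.88, 3.88 and 4.86 in Th1 recipients, and the difference was 2.45 with all arrays and 1.36 without Th1 recipients 4 and 5. Slfn3 read 5.60, 5.02, 4.87, 4.23 and 5.16 in Th17 and 3.95, 3.09, 3.58, 3.05 and 2.69 in Th1 recipients (log2 difference 1.71 ± 0.19 SE, at least 3.26-fold, adjusted p = 1.97e-06). These were the 2 called members of 8 measured schlafen genes, which are similar in sequence, so their split between probe sets is uncertain. Further genes with no overlap, chosen after their values were seen, were Mefv, Shisa3, Arg2 and Asprv1. Shisa3 is an endoplasmic reticulum protein (log2 difference 1.97 ± 0.28 SE, 3.91-fold, adjusted p = 5.16e-05). Arg2 is the mitochondrial arginase (log2 difference 1.66 ± 0.13 SE, 3.17-fold, adjusted p = 5.17e-09), and Asprv1 is a protease (log2 difference 0.97 ± 0.13 SE, at least 1.96-fold, adjusted p = 4.17e-05). Mefv, which encodes the inflammasome regulator pyrin, read 4.49, 4.52, 5.29, 5.35 and 4.71 in Th17 and 2.90, 3.03, 2.94, 2.96 and 3.52 in Th1 recipients (log2 difference 1.80 ± 0.14 SE, at least 3.49-fold, adjusted p = 3.47e-09). In Th1 recipients all but replicate 5 were close to the naive level of 2.65 ± 0.13. The plot of single genes shows these levels for each mouse.

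**Figure D2:**
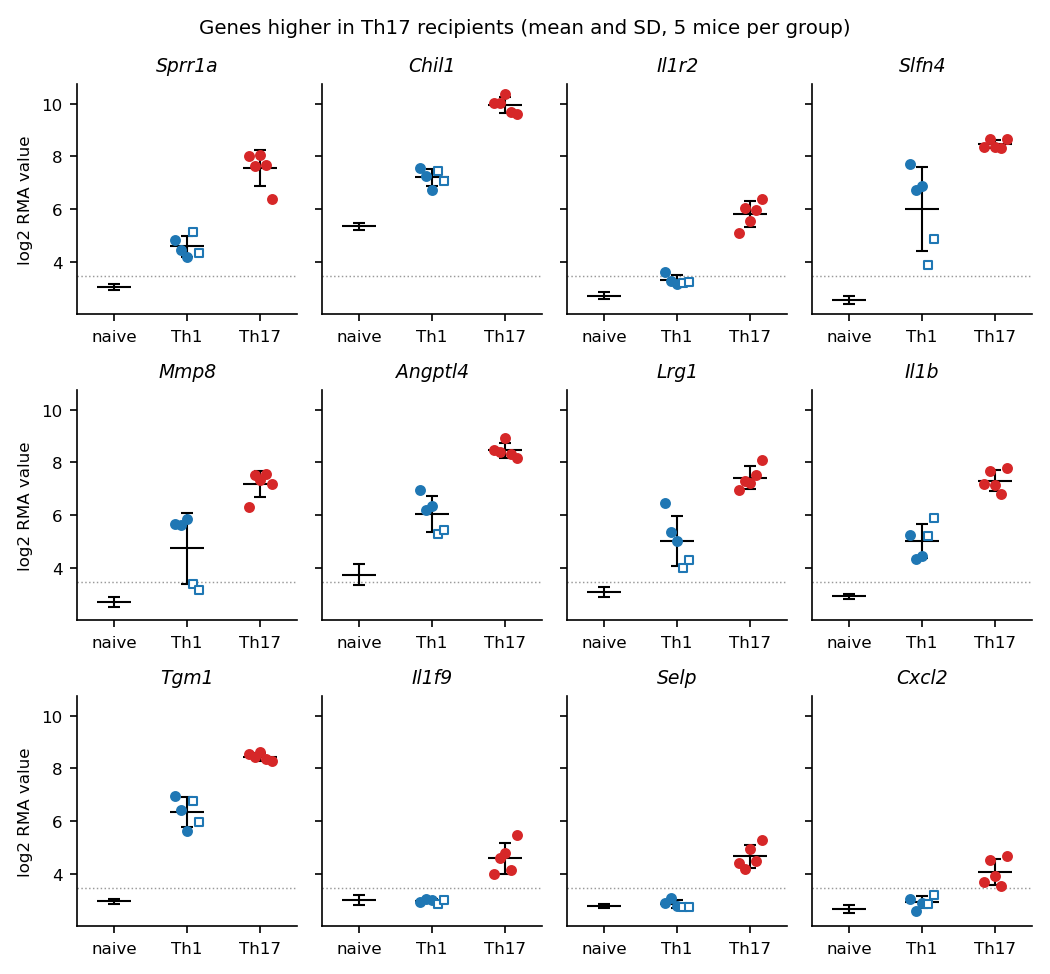
Level of 12 genes higher in Th17 recipients (log2 RMA value, y axis) in each Th1 and Th17 recipient, with mean and SD of 5 mice per group and the naive group as mean and SD. Open squares are Th1 recipients 4 and 5 and the dotted line is the lowest array median (3.46); Il1f9, Selp and Cxcl2 stayed below that line in all Th1 recipients, whereas Slfn4, Mmp8 and Lrg1 were lowest in Th1 recipients 4 and 5.

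The interleukin-1 family was higher in Th17 recipients for 6 of 16 measured members, with 0 lower, and for 5 without Th1 recipients 4 and 5. Il1b, the central inflammatory cytokine of the family, read 7.17, 7.67, 7.16, 6.80 and 7.79 in Th17 and 5.25, 4.36, 4.44, 5.23 and 5.88 in Th1 recipients without overlap (log2 difference 2.28 ± 0.20 SE, 4.87-fold, adjusted p = 3.16e-08). It was higher in Th1 recipients 4 and 5 than in replicates 2 and 3, and the difference grew to 2.63 without them. Il1f9, which encodes IL-36γ, a cytokine of epithelia and myeloid cells, read 4.00, 4.61, 4.79, 4.15 and 5.49 in Th17 and 2.93, 3.07, 3.00, 2.87 and 3.01 in Th1 recipients, with all Th1 recipients close to the naive level of 3.04 ± 0.19 (log2 difference 1.63 ± 0.17 SE, at least 3.10-fold, adjusted p = 5.81e-07). Il1r1, the signalling receptor, and Il1r2, the decoy, were both called, as given above. Ptgs2, the inducible cyclooxygenase, read 5.35, 6.05, 5.49, 5.49 and 6.03 in Th17 and 4.87, 4.15, 3.69, 4.22 and 4.53 in Th1 recipients (log2 difference 1.39 ± 0.17 SE, 2.62-fold, adjusted p = 7.62e-06). It led the 4 of 20 prostaglandin and leukotriene genes that were higher, followed by Ltb4r1, the leukotriene B4 receptor (log2 difference 0.78 ± 0.12 SE, at least 1.72-fold, adjusted p = 1.90e-04). Hpgd, which degrades prostaglandins, was higher (log2 difference 0.76 ± 0.18 SE, 1.70-fold, adjusted p = 0.0125), lost without Th1 recipient 5. Cysltr1, a receptor for cysteinyl leukotrienes, was the last (log2 difference 0.73 ± 0.15 SE, 1.66-fold, adjusted p = 0.00433). No gene of that list was lower.

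Of 12 IL-6 family genes, 3 were higher and 1 lower in Th17 recipients. Il6 itself, a cytokine that sustains Th17 cells, read 3.27, 4.54, 4.09, 3.11 and 4.29 in Th17 and 3.37, 2.45, 2.84, 2.83 and 2.92 in Th1 recipients, so that Th1 recipient 1 overlapped with the lower Th17 recipients (log2 difference 0.98 ± 0.19 SE, at least 1.97-fold, adjusted p = 0.00299). Il6st, the shared receptor chain gp130, was slightly higher (log2 difference 0.35 ± 0.08 SE, 1.27-fold, adjusted p = 0.0122). Ebi3, a subunit of IL-27 and IL-35, was lower (log2 difference −0.67 ± 0.18 SE, 1.59-fold, adjusted p = 0.0415), a call that was lost without Th1 recipient 1, 3, 4 or 5 or Th17 recipient 1, 4 or 5. Socs3, a feedback inhibitor of gp130 signalling that STAT3 raises, read 7.58, 7.54, 7.46, 7.46 and 7.89 in Th17 and 6.92, 5.89, 6.26, 6.44 and 6.48 in Th1 recipients without overlap (log2 difference 1.19 ± 0.14 SE, 2.28-fold, adjusted p = 2.40e-06). Bcl3, an atypical IκB protein, read 6.27, 6.85, 6.22, 5.42 and 6.50 in Th17 and 5.62, 3.73, 4.82, 5.19 and 4.59 in Th1 recipients and overlapped between Th17 recipient 4 and Th1 recipient 1 (log2 difference 1.46 ± 0.23 SE, 2.76-fold, adjusted p = 2.48e-04). Acute-phase genes, which IL-6 and IL-1 raise in liver and astrocytes, were higher for 7 of 16 and lower for 0. Ptx3, a soluble pattern recognition protein, read 7.79, 8.20, 7.39, 7.93 and 8.02 in Th17 and 5.79, 4.50, 4.61, 5.11 and 5.04 in Th1 recipients (log2 difference 2.86 ± 0.17 SE, 7.24-fold, adjusted p = 2.56e-11). A2m, a protease inhibitor, read 10.97, 11.10, 11.09, 10.95 and 11.09 in Th17 and 10.38, 10.24, 10.14, 10.49 and 10.27 in Th1 recipients (log2 difference 0.74 ± 0.10 SE, 1.67-fold, adjusted p = 2.26e-05). A second probe set of Ptx3 gave −0.01. Cp, the copper-carrying ferroxidase, read 9.99, 9.66, 10.11, 9.75 and 9.65 in Th17 and 8.78, 8.62, 8.21, 8.57 and 8.07 in Th1 recipients and also did not overlap.

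Chemokines for monocytes were higher in Th17 recipients, in a list of 28 CC chemokines and receptors with 7 higher and 1 lower. Ccl2, the main ligand of CCR2, read 9.10, 9.19, 9.20, 8.98 and 9.0 in Th17 and 8.26, 7.84, 7.80, 7.01 and 7.88 in Th1 recipients (log2 difference 1.34 ± 0.15 SE, 2.52-fold, adjusted p = 1.07e-06). Ccl7, which shares that receptor, read 7.67, 8.06, 7.87, 7.84 and 7.86 in Th17 and 6.60, 5.38, 6.21, 5.49 and 5.85 in Th1 recipients. Ccl12, the third ligand, read 7.43, 7.28, 7.33, 6.97 and 7.18 in Th17 and 6.53, 5.69, 6.32, 6.83 and 6.34 in Th1 recipients, with no overlap between the groups (log2 difference 0.90 ± 0.13 SE, 1.86-fold, adjusted p = 1.05e-04). Th17 recipients varied little in all 3 genes. The receptor Ccr2 was higher as well (log2 difference 0.73 ± 0.15 SE, 1.66-fold, adjusted p = 0.00506), with overlap, and within rows B, D and E the differences were 0.63, 0.42 and −0.09, so that row E had the opposite sign. Ccl1, a chemokine of activated T cells, was the 1 member lower in Th17 recipients (log2 difference −0.48 ± 0.12 SE, 1.39-fold, adjusted p = 0.0206), lost without Th1 recipient 2, 3 or 5 or Th17 recipient 2, 3 or 5. Cxcl12, a chemokine of stromal and endothelial cells, read 9.42, 9.46, 9.41, 9.38 and 9.46 in Th17 and 8.34, 8.04, 7.94, 8.27 and 7.86 in Th1 recipients with an SD of 0.03 in Th17 recipients (log2 difference 1.34 ± 0.11 SE, 2.53-fold, adjusted p = 6.24e-09). Pf4, a platelet and macrophage chemokine, was higher with overlap (log2 difference 1.60 ± 0.23 SE, 3.03-fold, adjusted p = 7.76e-05).

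Monocyte and macrophage markers were higher for 7 of 17 and lower for 0, and for 4 and 2 without Th1 recipients 4 and 5. The count of higher ones was also 4 without Th1 recipient 4 or 5 or Th17 recipient 2 or 3 alone. The list had no common direction, with a median of 0.10 and 10 of the 17 differences above 0. Its lowest difference was −1.14, which was not called. Plac8, a gene of inflammatory monocytes, read 8.62, 8.46, 8.42, 7.99 and 9.39 in Th17 and 7.96, 7.35, 7.33, 6.55 and 7.02 in Th1 recipients (log2 difference 1.34 ± 0.20 SE, 2.52-fold, adjusted p = 1.02e-04). Ms4a4c, a membrane protein of the same cells, read 7.44, 7.70, 7.22, 7.14 and 7.32 in Th17 and 6.64, 5.91, 6.08, 5.44 and 6.14 in Th1 recipients (log2 difference 1.32 ± 0.16 SE, 2.50-fold, adjusted p = 6.04e-06). F13a1, a transglutaminase of monocytes and macrophages, was higher with 1 overlapping Th1 recipient (log2 difference 1.07 ± 0.16 SE, 2.09-fold, adjusted p = 8.61e-05). The mean level of the 17 markers ran from 7.05 to 7.44 in Th17 recipients and from 6.75 to 7.21 in Th1 recipients. The genes that follow come from other lists. Myeloid C-type lectins and formyl peptide receptors were higher for 2 of 15 and lower for 0. Classical macrophage activation genes were higher for 4 of 14 and lower for 1, and alternative ones for 1 of 17 and 0. Complement genes were higher for 1 of 17 and lower for 4. Clec4e, a lectin receptor of activated macrophages, was higher (log2 difference 0.74 ± 0.13 SE, 1.68-fold, adjusted p = 0.00104). So were Acod1, which makes itaconate in them (log2 difference 0.69 ± 0.12 SE, 1.61-fold, adjusted p = 4.56e-04), and C5ar1, the receptor for complement C5a (log2 difference 1.11 ± 0.18 SE, 2.15-fold, adjusted p = 2.58e-04). Arg1, the cytosolic arginase of these cells, read 10.97, 11.38, 10.97, 11.09 and 11.24 in Th17 and 10.97, 10.66, 10.75, 9.69 and 10.17 in Th1 recipients (log2 difference 0.68 ± 0.16 SE, 1.60-fold, adjusted p = 0.0133). Without Th1 recipients 4 and 5 its difference of 0.34 was not called (adjusted p = 0.209). The part of these cell type markers in the other differences was not tested.

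Endothelial activation genes were called higher in Th17 recipients for 6 of 16 and lower for 1. Selp, the adhesion molecule P-selectin of activated endothelium and platelets, read 4.43, 4.19, 4.96, 4.52 and 5.29 in Th17 and 2.91, 3.09, 2.79, 2.78 and 2.76 in Th1 recipients, with every Th1 recipient near the naive level of 2.79 ± 0.07 and every Th17 recipient above it (log2 difference 1.81 ± 0.14 SE, at least 3.51-fold, adjusted p = 1.87e-09). Ch25h, an enzyme that makes 25-hydroxycholesterol, read 7.78, 7.74, 8.04, 7.23 and 7.88 in Th17 and 6.71, 5.28, 6.43, 6.10 and 6.69 in Th1 recipients (log2 difference 1.49 ± 0.18 SE, 2.81-fold, adjusted p = 6.04e-06). Upp1, a uridine phosphorylase, was higher (log2 difference 1.18 ± 0.18 SE, 2.27-fold, adjusted p = 1.73e-04). Gpr183, which encodes EBI2, a receptor for a dihydroxylated oxysterol made from the product of Ch25h, was higher too (log2 difference 0.65 ± 0.13 SE, 1.57-fold, adjusted p = 0.00274). The member lower in Th17 recipients was Apln, a vascular peptide (log2 difference −0.39 ± 0.09 SE, 1.31-fold, adjusted p = 0.00770), whose naive level of 8.13 ± 0.08 exceeded both groups. Among 18 genes of barrier endothelium 1 was higher and 2 lower, or 0 and 3 without Th1 recipients 4 and 5. Of 12 pericyte and smooth muscle genes 1 was higher and 0 lower, and none was called without those mice. The lower barrier genes were Slco1c1, a thyroid hormone carrier (log2 difference −0.58 ± 0.12 SE, 1.49-fold, adjusted p = 0.00664), and Flt1, a receptor for VEGF. Flt1 read 5.96, 5.84, 5.80, 5.70 and 5.76 in Th17 and 6.33, 6.57, 6.35, 6.31 and 6.30 in Th1 recipients (log2 difference −0.56 ± 0.12 SE, 1.48-fold, adjusted p = 0.00826).

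Of 24 fibroblast and matrix genes 12 were higher and 0 lower, with a list median of 0.60, and 7 were higher without Th1 recipients 4 and 5. Tnc, the injury matrix protein tenascin C, read 6.74, 7.14, 6.88, 7.03 and 6.48 in Th17 and 5.96, 5.31, 4.99, 5.20 and 5.55 in Th1 recipients. Col5a2, a fibrillar collagen chain, read 7.11, 7.11, 7.24, 7.19 and 6.99 in Th17 and 6.21, 5.78, 5.33, 5.44 and 5.63 in Th1 recipients. Dcn, the proteoglycan decorin, read 8.15, 8.40, 8.57, 8.31 and 8.52 in Th17 and 7.67, 7.08, 7.25, 6.88 and 6.68 in Th1 recipients, and none of the 3 genes overlapped between groups. Their differences were 1.45 (standard error 0.17), 1.45 (standard error 0.22) and 1.28 (standard error 0.19). Ecm1, an extracellular matrix protein, was higher by 1.18 with all arrays and by 0.75 without Th1 recipients 4 and 5. Of 22 matrix proteases and inhibitors 8 were higher and 2 lower. Timp1, an inhibitor of metalloproteases, read 10.80, 10.75, 10.85, 10.68 and 10.96 in Th17 and 10.09, 9.61, 9.21, 9.91 and 9.42 in Th1 recipients (log2 difference 1.16 ± 0.13 SE, 2.24-fold, adjusted p = 1.21e-06). Adamts1, a protease of proteoglycans, was higher (log2 difference 0.83 ± 0.15 SE, 1.78-fold, adjusted p = 8.30e-04). The 2 lower ones were Timp3 (log2 difference −0.32 ± 0.08 SE, 1.25-fold, adjusted p = 0.0169, lost without Th1 recipient 3 or 4 or Th17 recipient 3) and Mmp2, the gelatinase A of fibroblasts. Mmp2 read 5.82, 5.68, 6.60, 4.58 and 4.41 in Th17 and 7.02, 6.97, 7.06, 7.90 and 7.32 in Th1 recipients (log2 difference −1.83 ± 0.31 SE, 3.56-fold, adjusted p = 5.82e-04).

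Reactive astrocyte genes were counted under 3 published programmes. Of the pan-reactive list 8 of 13 were higher, of the A2 list 7 of 12, and of the A1 list 0 of 10, with 0 lower in any of them by limma. Without Th1 recipients 4 and 5 the counts were 5, 5 and 0, and 1 A1 gene was then lower. S1pr3, a sphingosine phosphate receptor, read 7.39, 7.53, 7.50, 7.51 and 7.54 in Th17 and 6.91, 6.20, 6.58, 6.66 and 6.94 in Th1 recipients (log2 difference 0.84 ± 0.12 SE, 1.79-fold, adjusted p = 1.05e-04) with little spread in Th17 recipients. Slc10a6, a steroid sulfate carrier, read 4.39, 4.83, 4.38, 4.84 and 4.19 in Th17 and 3.94, 3.99, 3.78, 2.96 and 3.06 in Th1 recipients (log2 difference 0.98 ± 0.17 SE, 1.97-fold, adjusted p = 6.09e-04). Hspb1, a small heat shock protein, was higher with overlap (log2 difference 0.66 ± 0.13 SE, 1.58-fold, adjusted p = 0.00347). The genes that follow are on none of these 3 lists. S100a13, an S100 protein, was narrowly spread and read 7.94, 8.02, 8.12, 7.94 and 8.0 in Th17 and 7.38, 7.34, 7.27, 7.41 and 7.43 in Th1 recipients (log2 difference 0.64 ± 0.08 SE, 1.56-fold, adjusted p = 2.13e-05). Hmox1, heme oxygenase, was higher by 1.08 (adjusted p = 8.20e-05). Of 14 S100 genes 5 were higher, and of 20 iron, copper and zinc handling genes 4, with 0 lower in either list. Hif1a, the oxygen-sensing factor, read 9.52, 9.62, 9.55, 9.28 and 9.32 in Th17 and 8.89, 8.94, 8.90, 9.13 and 8.94 in Th1 recipients (log2 difference 0.50 ± 0.11 SE, 1.41-fold, adjusted p = 0.00849). It was the 1 called member of 22 glycolysis and hypoxia genes, whose list median was 0.09.

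The 4 largest differences in the other direction were those of granzymes. Gzmd, Gzme, Gzmf and Gzmg are neighbouring genes on chromosome 14 that arose by duplication, and their proteins are serine proteases of cytotoxic granules. Their sequences are nearly alike, so probes for one may read the others and the split between them is uncertain. Their promoters are shown because this likeness extends to the bases before the start. The stretches are 116 bases of RefSeq promoters (GRCm38.p6, minus strand, 5′ to 3′), Gzmd at chr14:56132597-56132712, Gzme at chr14:56120630-56120745, Gzmf at chr14:56211432-56211547 and Gzmg at chr14:56159599-56159714, and capitals mark the longest run that all 4 promoters share, 36 bases.
Gzmd: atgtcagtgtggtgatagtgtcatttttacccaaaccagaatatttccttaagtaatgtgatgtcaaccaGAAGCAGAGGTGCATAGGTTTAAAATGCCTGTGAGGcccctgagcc
Gzme: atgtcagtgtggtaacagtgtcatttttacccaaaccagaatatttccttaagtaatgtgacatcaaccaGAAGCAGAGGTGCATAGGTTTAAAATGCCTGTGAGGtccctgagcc
Gzmf: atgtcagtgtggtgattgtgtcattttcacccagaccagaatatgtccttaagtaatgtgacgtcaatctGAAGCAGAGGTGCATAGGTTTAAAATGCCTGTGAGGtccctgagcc
Gzmg: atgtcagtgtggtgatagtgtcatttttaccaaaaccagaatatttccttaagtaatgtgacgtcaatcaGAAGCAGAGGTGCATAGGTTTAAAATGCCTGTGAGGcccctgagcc
The promoters of these 4 genes were identical at 89.2% to 94% of 278 to 299 aligned bases. The likeness was not particular to the 4, as Gzmc was identical to each of them at 87.4% to 89.4%. Between each of them and Gzmb it was 74.9% to 78.2%, over 179 to 197 aligned bases.

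Of 13 measured granzyme and granule genes, 7 were higher in Th1 recipients and 0 lower, with a list median of −1.14. Gzmf read 3.11, 3.11, 4.54, 3.02 and 2.81 in Th17 and 8.35, 8.84, 8.24, 5.72 and 5.37 in Th1 recipients, so that only Th17 recipient 3 exceeded 4. Gzmd read 2.60, 2.79, 2.62, 2.60 and 2.62 in Th17 and 7.63, 7.29, 7.11, 5.45 and 4.74 in Th1 recipients, and all Th17 recipients were near the naive level of 2.46 ± 0.08. Gzmg read 2.58, 2.91, 3.07, 2.85 and 2.62 in Th17 and 7.25, 7.30, 7.38, 4.60 and 5.41 in Th1 recipients. Gzme read 2.68, 2.80, 2.79, 2.56 and 2.85 in Th17 and 6.42, 6.65, 6.26, 4.02 and 3.79 in Th1 recipients. In all 4 genes every Th1 recipient was above every Th17 recipient, and Th1 recipients 4 and 5 were the lowest of their group. The differences were at least 15.8-fold for Gzmf (standard error 0.45 on the log2 scale, adjusted p = 1.95e-06), at least 13.9-fold for Gzmd (0.33, 1.72e-08), at least 12-fold for Gzmg (0.34, 7.46e-08) and at least 6.46-fold for Gzme (0.36, 2.59e-05). Within rows B, D and E the difference of Gzmd was −4.52, −2.12 and −4.83 and that of Gzmf was −5.13, −0.82 and −5.24, where row D holds Th1 recipient 5. Without Th1 recipients 4 and 5 the log2 differences of Gzmf, Gzmd, Gzmg and Gzme were −5.16, −4.70, −4.50 and −3.71, and 9 genes of the list were called.

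The other granzymes, chosen after their values were seen, differed in pattern. Gzmb, the main apoptosis-inducing granzyme, read 7.12, 6.75, 7.31, 6.95 and 8.63 in Th17 and 9.33, 9.09, 8.72, 5.29 and 5.26 in Th1 recipients. Th1 recipients 1 to 3 were above all Th17 recipients and Th1 recipients 4 and 5 below all of them, and the difference did not pass (log2 difference −0.19 ± 0.56 SE, adjusted p = 0.972). Gzma read 7.33, 6.48, 7.41, 6.67 and 7.15 in Th17 and 8.01, 8.28, 8.17, 3.67 and 5.30 in Th1 recipients, with the same split (log2 difference 0.32 ± 0.55 SE, adjusted p = 0.939). Without Th1 recipients 4 and 5 both were called higher in Th1 recipients, by a log2 difference of −1.70 for Gzmb and −1.14 for Gzma (adjusted p = 2.25e-04 for each). Gzmc read 3.51, 4.02, 4.06, 3.33 and 3.60 in Th17 and 7.43, 6.58, 6.99, 3.98 and 4.06 in Th1 recipients (log2 difference −2.11 ± 0.44 SE, 4.31-fold, adjusted p = 0.00469, −3.30 without Th1 recipients 4 and 5). Gzmk, a granzyme of memory T cells, read 4.10, 3.61, 3.33, 3.35 and 4.30 in Th17 and 5.46, 5.67, 5.15, 3.79 and 4.32 in Th1 recipients (log2 difference −1.14 ± 0.24 SE, 2.21-fold, adjusted p = 0.00650). Nkg7, a granule membrane protein of cytotoxic cells, followed the kind of recipient in all 10 mice, at 6.50, 5.81, 6.22, 5.68 and 6.22 in Th17 and 7.28, 7.42, 7.61, 7.05 and 7.23 in Th1 recipients (log2 difference −1.23 ± 0.12 SE, 2.35-fold, adjusted p = 2.27e-07). Beside these values, natural killer cell markers were called in neither direction for any of 10 genes in limma, with mean levels of 3.21 to 3.46 in Th17 and 3.18 to 3.43 in Th1 recipients. For 6 of these 10 genes both group means lay below 3.46, where differences are compressed. T cell markers, as given above, were called higher in Th17 recipients for 5 of 14 genes. Without Th1 recipients 4 and 5 the calls were 4 higher and 2 lower. The part of either cell type in the granzyme levels was not tested.

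**Figure D3:**
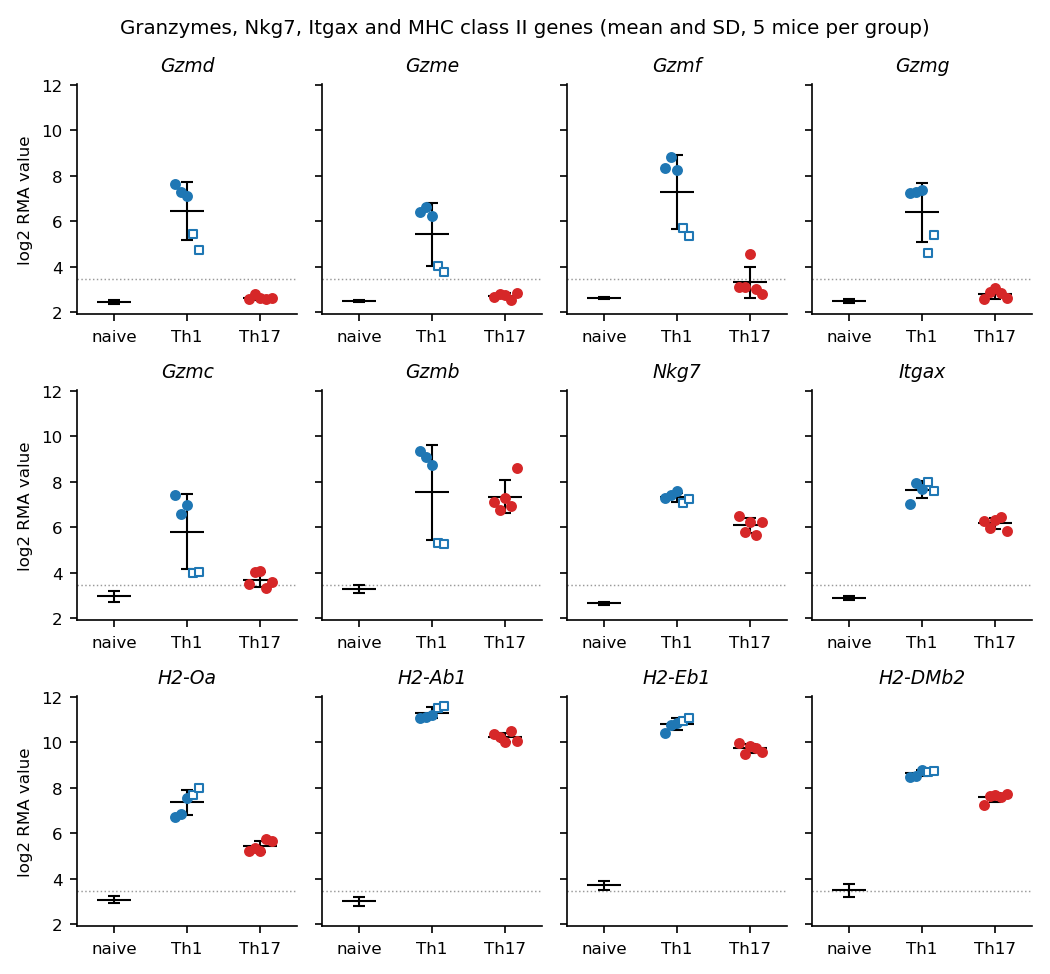
Level of 12 genes of granules and antigen presentation (log2 RMA value, y axis) in each Th1 and Th17 recipient, with mean and SD of 5 mice per group and the naive group as mean and SD. Open squares are Th1 recipients 4 and 5 and the dotted line is the lowest array median (3.46); they lie lowest of their group in Gzmd, Gzme, Gzmf and Gzmg, and Gzmb overlaps between groups, while all Th1 recipients exceed all Th17 recipients for Nkg7, Itgax and the 4 class II genes.

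MHC class II genes, which present peptides to CD4+ T cells and are raised by interferon-γ through the coactivator CIITA, were higher in Th1 recipients for 8 of 17 and lower for 0, with a list median of −0.37 and 7 calls without Th1 recipients 4 and 5. The promoters of H2-Eb1, a classical chain, and H2-Oa, a chain that modulates peptide loading, are shown from RefSeq (GRCm38.p6, plus strand, 5′ to 3′) at chr17:34305756-34305856 and chr17:34092276-34092370. Capitals mark the X box core GCAACNGATG, the element that the factor RFX reads, and the CCAAT box on either strand.
H2-Eb1: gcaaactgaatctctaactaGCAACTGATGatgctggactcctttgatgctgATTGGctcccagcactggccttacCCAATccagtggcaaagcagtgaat
H2-Oa: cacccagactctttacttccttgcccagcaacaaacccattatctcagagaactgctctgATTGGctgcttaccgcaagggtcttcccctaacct
The X box core was found in 30 of 13605 promoters (0.221%), among them 2 of the 12 class II genes with a promoter, H2-Eb1 and H2-Eb2. The CCAAT box was found in 38.4% of all promoters and in 9 of those 12 (75.0%), including 4 of the 5 called ones with a promoter.

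H2-Oa read 5.20, 5.35, 5.21, 5.73 and 5.66 in Th17 and 6.70, 6.85, 7.57, 7.69 and 7.99 in Th1 recipients. Every Th1 recipient was above every Th17 recipient (log2 difference −1.93 ± 0.17 SE, 3.81-fold, adjusted p = 2.59e-08), and Th1 recipients 4 and 5 were among the highest, so the difference was −1.61 without them. H2-Eb1 read 9.98, 9.49, 9.84, 9.76 and 9.58 in Th17 and 10.39, 10.76, 10.87, 10.93 and 11.08 in Th1 recipients (log2 difference −1.08 ± 0.14 SE, 2.11-fold, adjusted p = 1.57e-05). H2-Ab1, the other classical beta chain, read 10.34, 10.24, 10.01, 10.49 and 10.05 in Th17 and 11.06, 11.11, 11.21, 11.52 and 11.59 in Th1 recipients (log2 difference −1.07 ± 0.14 SE, 2.10-fold, adjusted p = 2.40e-05). H2-DMb2, a chain of the peptide exchanger H2-M, read 7.27, 7.62, 7.70, 7.59 and 7.73 in Th17 and 8.49, 8.53, 8.77, 8.68 and 8.72 in Th1 recipients (log2 difference −1.06 ± 0.14 SE, 2.08-fold, adjusted p = 3.47e-05). Both groups lay above naive cords, whose levels were 3.72 ± 0.20 for H2-Eb1 and 3.01 ± 0.19 for H2-Ab1. The others, chosen after their values were seen, were H2-DMa (−0.79), H2-DMb1 (−0.59), the invariant chain Cd74 (−0.67, not called without Th1 recipients 4 and 5) and Ciita itself. Ciita read 3.02, 3.17, 3.01, 3.38 and 3.08 in Th17 and 3.35, 3.72, 3.77, 3.47 and 3.40 in Th1 recipients, a small difference near background (log2 difference −0.41 ± 0.09 SE, at least 1.33-fold, adjusted p = 0.00493). The alpha chain H2-Aa did not pass (log2 difference −0.37 ± 0.15 SE, adjusted p = 0.245).

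Other lists of interferon-γ genes and of genes of antigen-presenting cells are given beside a share of 3.00% called over all genes. At that share, 0 calls among 16 genes is not a low count. MHC class I and immunoproteasome genes were called for 0 of 16 in limma, and of 12 interferon-induced GTPases only Gbp8 was called. It read 6.79, 6.35, 6.64, 6.46 and 6.18 in Th17 and 7.64, 7.54, 7.77, 7.59 and 7.77 in Th1 recipients without overlap (log2 difference −1.18 ± 0.10 SE, 2.26-fold, adjusted p = 8.24e-09). Of 12 genes for CXCR3 ligands and homeostatic CXC chemokines, 2 were higher and 2 lower. Cxcl9, an interferon-γ-induced ligand of CXCR3, was slightly lower in Th17 recipients (log2 difference −0.31 ± 0.09 SE, 1.24-fold, adjusted p = 0.0498), lost without Th1 recipient 1, 3 or 5 or Th17 recipient 1, 2, 3 or 5. Cxcl11, another such ligand, was higher (log2 difference 0.74 ± 0.17 SE, 1.67-fold, adjusted p = 0.0139), lost without Th1 recipient 4 or Th17 recipient 5, with a second probe set at −0.00. Itgax, which encodes the integrin CD11c of dendritic cells and activated microglia, read 6.26, 5.99, 6.33, 6.47 and 5.86 in Th17 and 7.05, 7.96, 7.67, 8.01 and 7.61 in Th1 recipients (log2 difference −1.48 ± 0.14 SE, 2.79-fold, adjusted p = 7.81e-08). It was the only one of 16 dendritic cell markers called. Complement genes were lower in Th17 recipients for 4 of 17 and higher for 1. C2 read 5.04, 5.36, 5.02, 5.06 and 5.54 in Th17 and 6.15, 5.74, 6.22, 6.40 and 6.07 in Th1 recipients (log2 difference −0.91 ± 0.14 SE, 1.88-fold, adjusted p = 1.93e-04). Cfb, a protease component of the alternative pathway, read 9.47, 9.71, 9.70, 9.03 and 9.10 in Th17 and 9.87, 9.98, 9.95, 10.11 and 9.86 in Th1 recipients (log2 difference −0.55 ± 0.12 SE, 1.47-fold, adjusted p = 0.00756). Without Th1 recipients 4 and 5 the count of lower ones was 1, and it was 2 without Th1 recipient 3 or 4 or Th17 recipient 2, 4 or 5 alone.

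Genes of lipid-laden phagocytes, the macrophages and microglia that take up myelin, were higher in Th1 recipients for 5 of 18 and lower for 1, with a list median of −0.33 (4 and 0 without Th1 recipients 4 and 5, and 3 higher without Th1 recipient 3 or 4 or Th17 recipient 2 or 5 alone). Lpl, lipoprotein lipase, read 7.76, 7.83, 8.36, 7.45 and 6.82 in Th17 and 9.11, 9.62, 9.48, 8.89 and 8.05 in Th1 recipients, with overlap at Th1 recipient 5 (log2 difference −1.39 ± 0.24 SE, 2.61-fold, adjusted p = 9.46e-04). Within row D, which holds that array, the difference was reversed, and without Th1 recipients 4 and 5 it was −1.76. Cd36, a scavenger receptor for lipids, read 5.48, 5.52, 5.29, 5.47 and 5.29 in Th17 and 6.19, 6.84, 6.53, 5.73 and 5.95 in Th1 recipients (log2 difference −0.84 ± 0.13 SE, 1.79-fold, adjusted p = 1.59e-04). Trem2, a lipid-sensing receptor of phagocytes, read 7.80, 7.50, 7.83, 7.71 and 6.89 in Th17 and 8.07, 8.12, 8.38, 8.53 and 8.19 in Th1 recipients (log2 difference −0.71 ± 0.14 SE, 1.64-fold, adjusted p = 0.00370). Neither gene overlapped between groups, but a second probe set of Trem2 gave 0.08. Cst7, the protease inhibitor cystatin F, read 9.24, 9.08, 9.13, 9.02 and 8.54 in Th17 and 9.73, 9.74, 9.83, 10.08 and 9.73 in Th1 recipients (log2 difference −0.82 ± 0.11 SE, 1.76-fold, adjusted p = 3.70e-05). The scavenger receptor Msr1 went the other way (log2 difference 0.77 ± 0.17 SE, 1.71-fold, adjusted p = 0.00699). Apoc1 (−0.88, lost without Th1 recipient 3 or 4 or Th17 recipient 2 or 5) and Apoe (−0.51, lost without Th1 recipient 1, 2, 3, 4 or 5 or Th17 recipient 1, 2 or 5), both lipid carriers, were chosen after their values were seen.

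Single genes higher in Th1 recipients were also found outside these groups. Cxcl13, a chemokine for B cells, read 5.57, 4.98, 6.38, 4.58 and 3.18 in Th17 and 6.90, 6.39, 6.17, 7.45 and 7.89 in Th1 recipients. It overlapped between the groups and spread widely in Th17 recipients (log2 difference −2.02 ± 0.36 SE, 4.06-fold, adjusted p = 0.00120). B and plasma cell markers were called for 0 of 13 genes in limma, but 11 of the 13 had means below 3.46 in both groups. Ear3, an eosinophil-associated ribonuclease of macrophages and eosinophils, was chosen after its values were seen. It read 4.67, 4.96, 5.62, 3.80 and 3.46 in Th17 and 7.53, 7.91, 7.76, 6.46 and 4.61 in Th1 recipients (log2 difference −2.35 ± 0.42 SE, 5.10-fold, adjusted p = 0.00101), with Th1 recipient 5 the lowest of its group. The difference was −3.23 without Th1 recipients 4 and 5. Siglecf, a sialic acid receptor of eosinophils that was chosen in the same way, read 2.97, 3.31, 3.45, 3.86 and 3.23 in Th17 and 3.99, 3.93, 4.21, 3.96 and 4.16 in Th1 recipients (log2 difference −0.69 ± 0.13 SE, at least 1.61-fold, adjusted p = 0.00175). Mast cell, basophil and eosinophil markers were called for 0 of 13 genes, of which 11 had means below 3.46 in both groups. Plet1, a membrane protein of some dendritic cells and epithelia, read 2.96, 3.17, 3.19, 3.06 and 2.76 in Th17 and 4.41, 5.12, 4.65, 4.05 and 3.24 in Th1 recipients (log2 difference −1.27 ± 0.20 SE, at least 2.40-fold, adjusted p = 2.14e-04), with Th1 recipient 5 close to the Th17 recipients and 2 other probe sets at −0.74 and 0.02.

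Homeostatic astrocyte genes showed no common direction, with 2 of 14 called lower in Th17 recipients, 1 higher and a list median of −0.03. Of the 14 differences 7 lay above and 7 below 0. Fgfr3, a growth factor receptor of astrocytes, read 7.07, 6.79, 6.89, 6.24 and 6.99 in Th17 and 7.46, 7.40, 7.75, 8.21 and 7.39 in Th1 recipients (log2 difference −0.85 ± 0.14 SE, 1.80-fold, adjusted p = 3.77e-04), against 8.42 ± 0.06 in naive cords. Atp1b2, a subunit of the sodium pump, was the other lower member (log2 difference −0.30 ± 0.07 SE, 1.23-fold, adjusted p = 0.00774). The glutamate carrier Slc1a2 was the 1 higher member (log2 difference 0.39 ± 0.10 SE, 1.31-fold, adjusted p = 0.0264), lost without Th1 recipient 2 or 3 or Th17 recipient 2 or 4, and another probe set of it gave 0.07. The water channel Aqp4 (log2 difference 0.17 ± 0.09 SE, adjusted p = 0.494) did not pass the test. Entpd2, an enzyme that degrades extracellular ATP and is not on the list, was among the 15 genes with the largest decreases. It read 5.03, 5.12, 4.96, 4.30 and 5.00 in Th17 and 6.13, 5.83, 6.13, 6.76 and 6.28 in Th1 recipients (log2 difference −1.34 ± 0.15 SE, 2.54-fold, adjusted p = 1.48e-06), against 7.01 ± 0.15 in naive cords.

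Other genes stood lower in Th17 recipients than in both Th1 recipients and naive mice. Bcan, the matrix proteoglycan brevican, read 5.30, 4.91, 4.88, 4.65 and 5.14 in Th17 and 5.72, 5.39, 5.58, 6.85 and 6.43 in Th1 recipients, against 7.78 ± 0.13 in naive cords (log2 difference −1.02 ± 0.18 SE, 2.02-fold, adjusted p = 0.00120). Th1 recipients 4 and 5 were the closest to naive mice, and the difference was −0.59 without them. Npb, a neuropeptide, read 4.03, 3.65, 3.43, 3.50 and 3.52 in Th17 and 4.26, 4.28, 4.52, 5.39 and 5.34 in Th1 recipients (log2 difference −1.13 ± 0.21 SE, 2.19-fold, adjusted p = 0.00156). 2900052N01Rik, a transcript without a known role, read 2.72, 3.07, 2.96, 2.71 and 2.55 in Th17 and 3.59, 3.31, 4.22, 4.76 and 4.23 in Th1 recipients (log2 difference −1.22 ± 0.22 SE, at least 2.33-fold, adjusted p = 0.00123), with 2 other probe sets at −0.15 and 0.04. Igf2, a growth factor of the meninges and vessels, read 4.49, 5.18, 4.96, 4.75 and 4.55 in Th17 and 6.17, 5.72, 5.75, 5.93 and 6.07 in Th1 recipients, with Th1 recipients at the naive level of 6.07 ± 0.06 (log2 difference −1.14 ± 0.17 SE, 2.21-fold, adjusted p = 1.42e-04). A second probe set of Igf2 gave 0.00. Sfrp5, an inhibitor of WNT signalling chosen after its values were seen, read 3.63, 3.83, 3.83, 3.78 and 3.77 in Th17 and 4.34, 4.54, 5.13, 5.92 and 4.24 in Th1 recipients (log2 difference −1.06 ± 0.20 SE, 2.09-fold, adjusted p = 0.00224).

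Cholesterol synthesis genes stood in a different order, with Th17 recipients between the higher naive cords and the lower Th1 recipients in the group means of 18 of 19 genes, Ebp being the exception. Of 19 measured genes 6 were higher in Th17 recipients and 0 lower, with 4 higher without Th1 recipients 4 and 5, and all 19 had a difference above 0. Th17 recipient 5 stood apart, with a mean level of 7.42 over the 19 genes. The other Th17 recipients were at 6.49 to 6.77 and the Th1 recipients at 6.18 to 6.47. Idi1, which makes the isoprenoid building block, read 7.74, 7.91, 7.30, 7.97 and 8.66 in Th17 and 7.13, 7.01, 6.96, 7.01 and 7.25 in Th1 recipients (log2 difference 0.85 ± 0.17 SE, 1.80-fold, adjusted p = 0.00370), and its naive level was 9.12 ± 0.16. Fdps, the next enzyme of the pathway, read 7.64, 7.87, 7.54, 7.65 and 8.71 in Th17 and 7.30, 7.19, 6.84, 6.89 and 7.26 in Th1 recipients (log2 difference 0.79 ± 0.15 SE, 1.72-fold, adjusted p = 0.00265), against 8.96 ± 0.08 in naive cords. Th17 recipient 5 was the highest in both genes. Cyp51 (log2 difference 0.74 ± 0.15 SE, 1.68-fold, adjusted p = 0.00493) and Fdft1 (log2 difference 0.58 ± 0.13 SE, 1.50-fold, adjusted p = 0.00660), which act later in the pathway, were higher too, with naive levels of 8.29 ± 0.09 and 9.40 ± 0.13. Within rows B, D and E the differences of Idi1 were 0.79, 0.05 and 0.79 and those of Fdps 0.80, 0.28 and 0.57, smallest in row D. The plot of both groups of genes shows the different position of naive cords.

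**Figure D4:**
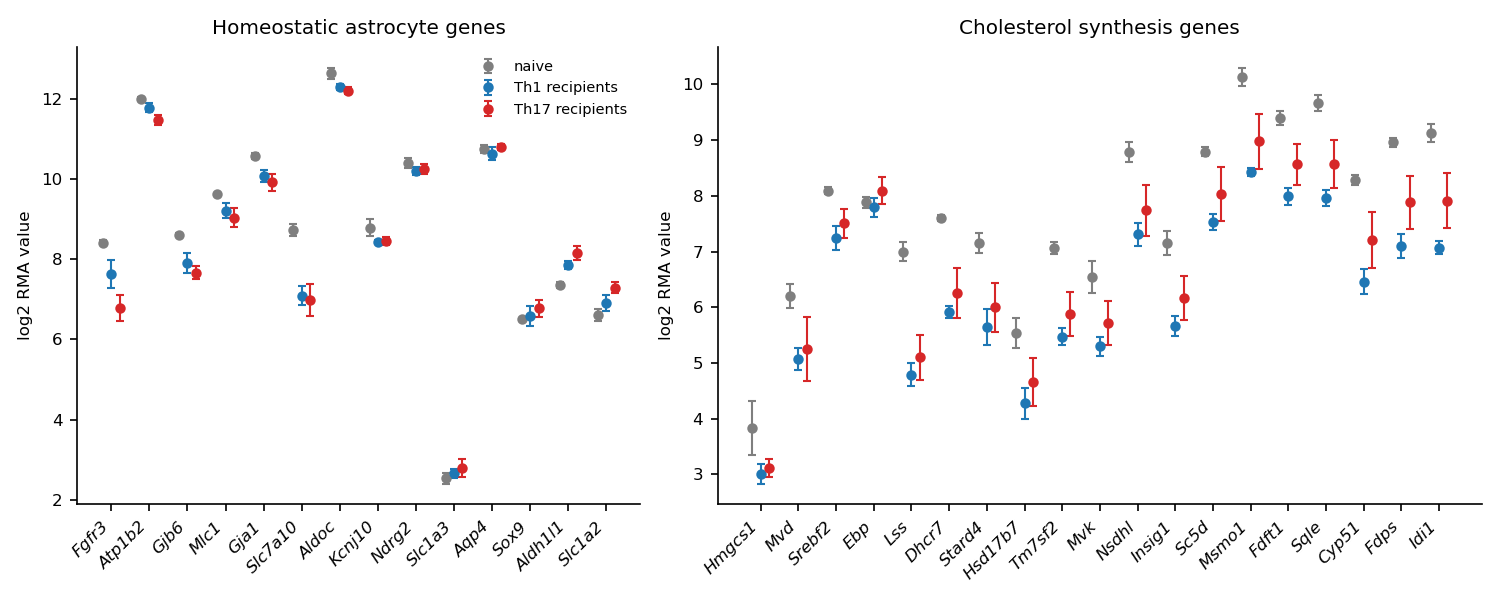
Mean and SD (error bars, n = 5 mice each) of the log2 RMA value in naive mice, Th1 recipients and Th17 recipients for all measured members of the homeostatic astrocyte list (left, 14) and the cholesterol synthesis list (right, 19), each ordered by the difference. On the left Th17 recipients are the lowest group in 7 of 14 genes, and on the right they lie between naive cords and Th1 recipients in 18 of 19.

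Type I interferon antiviral genes were higher in Th17 recipients for 6 of 24 and lower for 0, with a list median of 0.37, but for 0 of 24 without Th1 recipients 4 and 5, when the median was 0.19. Leaving out single mice moved the count between 1 (without Th1 recipient 4 or 5) and 10 (without Th1 recipient 1), with 2 or 3 without Th1 recipient 2 or Th17 recipient 2, 3 or 5. Mx1, an antiviral GTPase, read 5.13, 4.82, 4.74, 4.99 and 5.30 in Th17 and 4.92, 3.88, 4.58, 3.48 and 4.16 in Th1 recipients (log2 difference 0.79 ± 0.18 SE, 1.73-fold, adjusted p = 0.0109). Rsad2, the antiviral protein viperin, read 9.12, 9.49, 8.88, 8.79 and 9.17 in Th17 and 8.88, 8.35, 8.83, 7.55 and 7.94 in Th1 recipients (log2 difference 0.78 ± 0.19 SE, 1.72-fold, adjusted p = 0.0181). Th1 recipient 4 was the lowest of all 10 mice in both genes, and the Rsad2 call was lost without Th1 recipient 4 or 5 or Th17 recipient 2. The letters GAAANNGAAA, the core of the element that these genes share, were found in 8 of 17 of their promoters (47.1%) and in 2.96% of all. Members of the TNF family were higher for 5 of 31 and lower for 0. Among them were Tnfsf9, a ligand that costimulates T cells (log2 difference 0.99 ± 0.18 SE, 1.98-fold, adjusted p = 0.00144), and Ltb, lymphotoxin β (log2 difference 0.64 ± 0.14 SE, 1.56-fold, adjusted p = 0.00650). Fas, a death receptor, was another (log2 difference 0.70 ± 0.15 SE, 1.63-fold, adjusted p = 0.00630). Casp4, an inflammatory caspase, read 8.23, 8.01, 8.18, 8.40 and 8.11 in Th17 and 7.52, 7.83, 7.43, 7.66 and 7.48 in Th1 recipients (log2 difference 0.60 ± 0.11 SE, 1.52-fold, adjusted p = 0.00118).

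Several groups showed no call in either direction. The gene lists share members, so their counts are not separate findings. For example, S100a9 is on the IL-17 target, neutrophil and S100 lists, and Ptgs2 is on the IL-17 target, A2 astrocyte and prostaglandin lists. Over the 65 gene lists, 34 held only calls higher in Th17 recipients, 5 only calls higher in Th1 recipients and 15 both. The other 11 lists, with 163 different measured genes, held none. Of these 163 genes, 27 had an unadjusted p under 0.05 in limma, against 2051 of all 17097 genes, which is not a smaller share. By the methods' t-test 0 of the 163 were called, but that test called only 69 of all genes. Beside those given above the lists without a call were homeostatic microglia genes (0 of 15), erythroid markers (0 of 9), spinal cord Hox genes (0 of 25), NOTCH receptors, ligands and processing genes (0 of 16), NOTCH target genes (0 of 10) and cell cycle genes (0 of 29). Of the 9 erythroid markers 7 had means below 3.46 in both groups. Cell cycle genes had a mean level of 4.32 and 4.61 in Th1 recipients 4 and 5. That level was 5.18 to 5.23 in Th1 recipients 1 to 3 and 4.94 to 5.41 in Th17 recipients. Of the 29 differences 24 lay above 0 (median 0.20), and the median was −0.07 without Th1 recipients 4 and 5. Notch1 read 7.10, 7.16, 6.99, 7.06 and 6.78 in Th17 and 7.10, 7.16, 6.72, 7.07 and 7.12 in Th1 recipients (log2 difference −0.02 ± 0.09 SE, adjusted p = 0.988). Notch2 stood at 3.22 ± 0.10 in Th17 and 3.17 ± 0.08 in Th1 recipients (SD, n = 5 each), near background (log2 difference 0.05 ± 0.08 SE, adjusted p = 0.924). Myelin and oligodendrocyte genes were called for 1 of 16, neuron and motor neuron genes for 1 of 20 and oligodendrocyte precursor genes for 2 of 15. The called neuronal gene was Prph, an intermediate filament of motor and sensory neurons (log2 difference 0.41 ± 0.10 SE, 1.33-fold, adjusted p = 0.0139). Single calls appeared in some of these lists when 1 mouse was left out, at most 2 a list, and the absence of a call does not show that the groups were alike. The plot of lists shows the difference of every member of 23 of the lists.

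**Figure D5:**
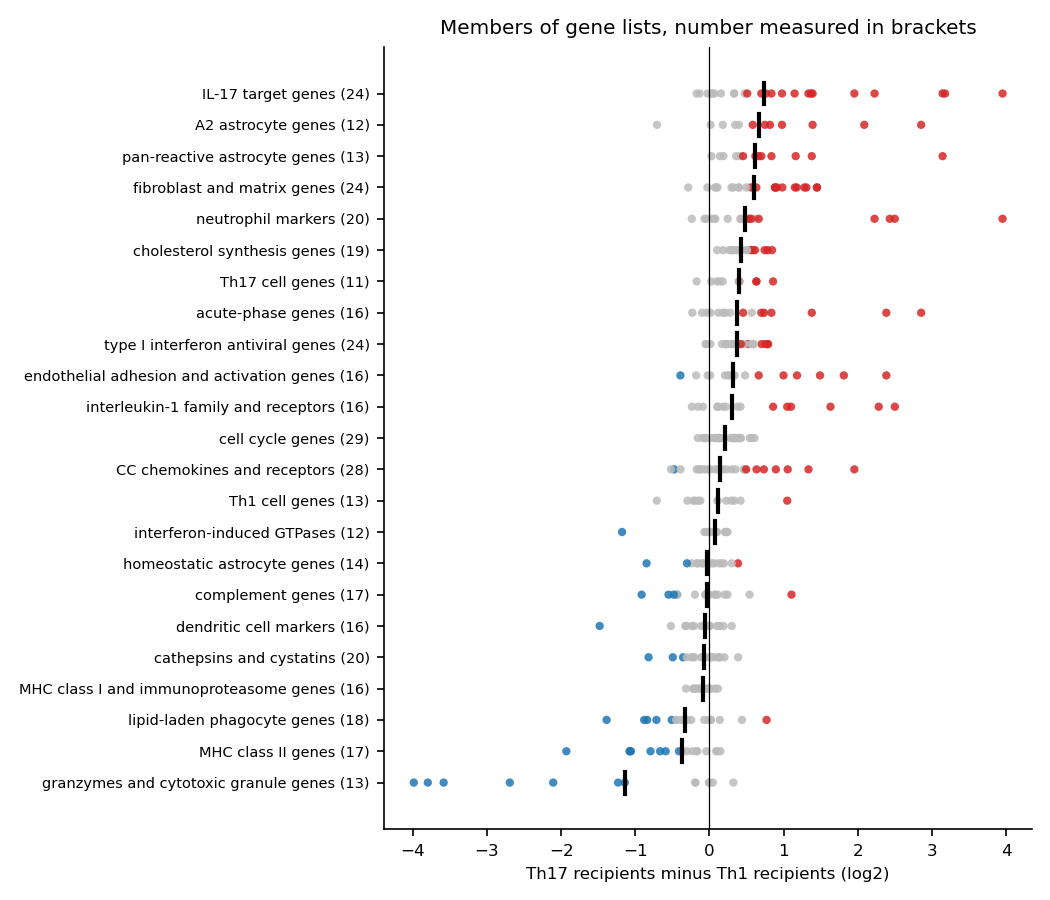
Difference between Th17 and Th1 recipients (log2, x axis) of each measured member of 23 gene lists, with the number of measured members in brackets. Red points were called higher in Th17 recipients, blue points higher in Th1 recipients, grey points were not called and the black bar is the list's median, from 0.73 for IL-17 target genes at the top to −1.14 for granzyme and granule genes at the bottom.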

How the data were processed

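Total RNA of each spinal cord was labelled from the 3′ end and hybridised to an Affymetrix HT-MG-430PM array. The authors deposited log2 values after RMA, in which background is corrected, arrays are brought to a common distribution and probes are summarised per set. The version of RMA and the set of arrays it was run on are not given in the sources used. Of 45118 probe sets, 28898 had a single gene symbol in the platform annotation, 551 had several and 15669 were not listed. For each of 17097 genes the probe set with the highest mean over 24 arrays was kept.

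A linear model with 5 groups was fitted to all 24 arrays with limma 3.58.1 in R 4.3.3, with moderated variances, and the contrast of wild-type Th17 and Th1 recipients was tested two-sided. The fit also held naive wild-type mice (5 arrays), Act1-deficient Th17 recipients (4) and Act1-deficient naive mice (5). Genes with an adjusted p under 0.05 were called. Array medians ran from 3.464 to 3.572, and 5 arrays a group limit the precision. Named genes were the 15 called genes with the largest difference in each direction whose arrays did not overlap, up to 4 called members of each of 65 gene lists by smallest adjusted p with members that went against most of their list, genes that define Th1 and Th17 cells, and genes that the study names for these arrays. Others were chosen after their values were seen, as is said with most of them. Agt, Slc15a2 and Gm2a were also chosen in this way. Aqp4, H2-Aa, Ebp, Zc3h12a, Tnfaip3, Cebpb and Elf3 are list members named outside the rule. The members and lists were chosen with earlier results of these data known. Motifs were searched in RefSeq promoters. Single mice left out, other scalings, probe set choices, blocks and tests were tried as alternatives. The fit was tested on simulated data.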

Additional observations from a re-analysis of the deposited data

Results flagged for a closer look

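In the named genes, 30 of 370 groups of 5 mice (185 genes in 2 groups) held a mouse whose gap to the nearest of the others exceeded 0.71 of the group's range. Chance flags about 1 in 20 groups. Values below are log2 RMA values of that mouse.

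Th17 recipient 5 held the most, with high values for Socs3 (7.89) and the cholesterol synthesis gene Fdps (8.71) and low values for Sprr1a (6.39), the T cell receptor chain Cd247 (3.82), Cd14, a receptor for bacterial lipid (8.60), Ms4a6d, a macrophage membrane protein (8.78), Apoe (10.76) and Gm2a, a lysosomal lipid carrier (9.82). Th17 recipient 4 was low for Entpd2 (4.30), Nfkbiz (5.22) and Fcgr1, a high-affinity Fc receptor (7.34). Th17 recipient 3 was low for Timp3 (7.62) and the peptide carrier Slc15a2 (5.31) and the highest for Gzmf (4.54), while Th17 recipient 2 was the highest for Gzmd (2.79). Th17 recipient 1 was low for S1pr3 (7.39) and high for Slco1c1 (6.85).

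Th1 recipient 4 was high for Hif1a (9.13), Cst7 (10.08), Saa3 (9.97) and Agt, the angiotensin precursor (9.97), and low for Irf4 (2.86), Cxcr2 (2.46) and Ccl1 (6.29). Th1 recipient 1 was high for Il1r2 (3.64) and Pf4 (4.30), Th1 recipient 2 was high for Flt1 (6.57) and low for S100a16, an S100 protein (9.45), Th1 recipient 3 was low for Notch1 (6.72), and Th1 recipient 5 was high for Mefv (3.52). Without the mouse concerned the calls of Irf4 (adjusted p = 0.0946 in limma), Timp3 (0.063), S100a16 (0.0892), Apoe (0.0672) and Gm2a (0.0825) were lost.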

How the results depend on the processing

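Of the 513 calls (327 higher in Th17 and 186 in Th1 recipients, 180 in the gene lists, 144 among the genes named by rule), leaving out single mice gave 375 to 540 (245 to 350 and 130 to 201, 148 to 187 in the lists, 117 to 138 named). The fewest named calls came without Th1 recipient 4. With the 10 compared arrays alone there were 282 (192 and 90, 102 in the lists, 89 named), by the methods' t-test 69 (52 and 17, 31 in the lists, 32 named, 1843 genes at an unadjusted p under 0.05), and by the exact Mann-Whitney test 0 in each of these counts, with a smallest adjusted p of 0.241 and 1406 genes at an unadjusted p under 0.05. With a minimum of 2-fold 88 remained (63 and 25, 61 in the lists, 61 named). Without Th1 recipients 4 and 5 there were 320, with 193 higher in Th17 recipients. Centring on ribosomal protein genes left 105 higher in Th1 recipients and moved the median of all genes by 0.06. Of 59 named calls with another probe set, 27 held by the brightest one. In the other alternatives every one of these counts stayed within 1.5 times. The cause of these changes was not tested, other than fewer arrays or genes by construction.

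Signs turned for Notch1 (−0.02), which was not called, at 0.0125 with array weights, 0.0243 with the plate row as a block, 0.0448 with ribosomal centring and 0.024 without Th1 recipients 4 and 5, and single mice left out gave −0.0925 to 0.0446. Gzma (0.32) went to −0.0035 with the row block, −1.14 without Th1 recipients 4 and 5, and single mice left out gave −0.43 to 0.72, with −0.02 without Th1 recipient 5. Gzmb (−0.19) went to 0.26, 0.20 and 0.11 without Th1 recipient 1, 2 or 3, in a range of −0.76 to 0.26. By the brightest other probe set Ptx3 was −0.0088, Igf2 0.0002, Cxcl11 −0.0046, Plet1 0.023 and Trem2 0.0816, the last pair also when probe sets that can hit several transcripts were left out.

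Same-numbered mice of both groups did not deviate together (correlations −0.245, −0.072, 0.199, −0.121 and 0.157), so the numbers do not pair them. With a replicate block 553 genes were called (345 and 208, 183 in the lists, 142 named). With 5 mice against 5, the smallest two-sided exact permutation p is 0.00794. Genes near the lower end of the scale have compressed differences.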

Other observations

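Of 16220 probe sets without a single gene symbol, 97 were called higher in Th17 and 52 higher in Th1 recipients when they were added to the fit. They are unnamed here and are not among the genes above.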
